A study of Mus musculus with 20 samples.

Results

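The 10 homeodomain transcription factors Isl1, Isl2, Pou4f1, Pou4f2, Pou4f3, Tlx3, Drgx, Hmx1, Hmx2 and Hmx3 were followed by messenger RNA sequencing in the lumbar dorsal root ganglia (DRG) of adult male mice, 1 day after a sciatic nerve transection. They were chosen by symbol, as regulators of sensory neuron identity, with earlier results of these data known. All 10 were found by Ensembl identifier in a table of 78258 genes. DRG are the clusters beside the spinal cord that hold the cell bodies of the body's sensory neurons. Each of 10 mice gave 1 library from the ganglia of lumbar levels 4 to 6 on the lesioned (ipsilateral) side and 1 from the other (contralateral) side. The conditional knockout mice (cKO, 5 mice) carried Ahr fl/fl, floxed alleles of the aryl hydrocarbon receptor gene, with a tamoxifen-inducible Cre recombinase and a yellow fluorescent protein (Thy1 CRE-ERT2/EYFP). Control mice (5 mice) were Ahr f/f or f/+ per the protocol, and no Cre is named for them. The library names of all 5 give only ff, and the titles call them wildtype. All 10 mice received tamoxifen at 100 mg/kg on 5 days at 17 weeks of age and were studied 4 weeks later. Cre was driven by the Thy1 promoter, so cells that do not use it keep Ahr, and the contralateral ganglia come from lesioned animals, not from unoperated ones. The treatment field of the labels gives a spinal cord injury instead, and the nerve lesion of the protocol text was taken as right.

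Homeodomain factors bind DNA through a conserved helix-turn-helix fold, and combinations of them specify neuron types and keep them specified. In the embryo Isl1 and Pou4f1 (Brn3a) act together as newborn sensory neurons leave the cell cycle, shut off earlier programmes and open subtype programmes. Tlx3 and Drgx (also called Prrxl1 or DRG11) are needed for nociceptive neurons and their spinal targets, and HMX factors are best known from the inner ear, cranial sensory ganglia and hypothalamus. Adult sensory neurons keep many of these genes on.

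The 20 libraries held 76.2 to 118.5 M counts (M, mega). Values are CPM, read counts scaled to a common library total after TMM scaling, and group values are mean ± SD over 5 mice. Tests used edgeR's quasi-likelihood test with Benjamini-Hochberg adjustment over 28564 tested genes, and adjusted p under 0.05 made a gene called. Of the members, 9 passed the filter on low counts and Hmx2 did not. Hmx3 passed through its ipsilateral libraries alone, so it had to differ between the sides. In contralateral libraries Ahr itself was at 24.2 ± 2.10 CPM (control) and 20.4 ± 0.536 CPM (cKO) (log2 difference -0.25, edgeR adjusted p = 0.103). Ipsilaterally the log2 difference of Ahr between genotypes was -0.11 and was not called. After injury Ahr rose by 0.50 on the log2 scale in control (edgeR adjusted p = 4.698e-06) and by 0.65 in cKO mice (adjusted p = 1.452e-07). Mouse H99 stood apart among cKO mice on the contralateral side, where 21 genes were called between genotypes with it and 3326 without it. Genotype differences of members whose call changed without it are given both ways.

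The sequences upstream of 4 members are shown: Isl1 and Isl2 as paralogs that both fell after injury, and Hmx3 and Hmx2 as neighbours of which only Hmx3 had more than 4 counts in any library. Each is the 250 bases before a transcription start in RefSeq on GRCm38.p6, read 5′ to 3′ on the gene's strand. They lie at chr13:116309689-116309938 (Isl1, minus strand), chr9:55540899-55541148 (Isl2, plus strand), chr7:131542713-131542962 (Hmx3, plus strand), and chr7:131554043-131554292 and chr7:131548507-131548756 (both starts of Hmx2, plus strand). Capitals mark matches to a searched motif.
Isl1: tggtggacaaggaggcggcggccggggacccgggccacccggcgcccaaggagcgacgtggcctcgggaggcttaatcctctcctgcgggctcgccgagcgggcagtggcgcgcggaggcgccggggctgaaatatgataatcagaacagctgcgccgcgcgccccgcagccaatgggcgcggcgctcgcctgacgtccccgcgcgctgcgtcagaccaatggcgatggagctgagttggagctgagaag
Isl2: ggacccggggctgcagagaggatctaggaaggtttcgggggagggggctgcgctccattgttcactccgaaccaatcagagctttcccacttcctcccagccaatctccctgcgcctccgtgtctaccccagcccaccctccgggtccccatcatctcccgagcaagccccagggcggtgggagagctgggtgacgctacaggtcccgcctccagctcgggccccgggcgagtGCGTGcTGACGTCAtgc
Hmx3: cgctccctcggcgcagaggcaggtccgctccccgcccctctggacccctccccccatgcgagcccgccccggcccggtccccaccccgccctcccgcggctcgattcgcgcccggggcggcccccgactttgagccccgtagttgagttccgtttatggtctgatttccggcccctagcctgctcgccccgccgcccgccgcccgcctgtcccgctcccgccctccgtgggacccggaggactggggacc
Hmx2 proximal start: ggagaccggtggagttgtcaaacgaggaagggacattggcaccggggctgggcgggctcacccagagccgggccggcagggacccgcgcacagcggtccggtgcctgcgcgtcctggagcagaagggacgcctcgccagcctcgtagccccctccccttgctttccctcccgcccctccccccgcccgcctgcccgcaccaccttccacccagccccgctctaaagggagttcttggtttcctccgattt
Hmx2 distal start: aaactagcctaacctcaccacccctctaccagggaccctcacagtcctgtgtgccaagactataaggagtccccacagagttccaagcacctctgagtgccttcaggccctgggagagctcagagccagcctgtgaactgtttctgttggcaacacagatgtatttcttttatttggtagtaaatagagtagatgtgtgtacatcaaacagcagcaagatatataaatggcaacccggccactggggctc

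The windows of Isl1, Isl2 and Hmx3 are rich in G and C, at 71.2%, 66.8% and 76.8%, against a median of 52.4% over the 32817 RefSeq promoter windows of the same length. Isl1 has 33 CpG dinucleotides, Hmx3 has 31 and Isl2 has 16, against a median of 6. The starts of Hmx2 differ, with 70% G and C and 21 CpG in the proximal window and 49.6% and 1 CpG in the distal window. Among members not shown, the share of G and C was 78% for Pou4f1, 75.6% for Hmx1, 70.8% for Pou4f2, 64.8% for Drgx and 48.8% for Tlx3. Motifs were searched on both strands, by letters alone: GCGTG, the core bound by AhR with its partner ARNT, TGANTCA, the AP-1 site bound by injury-induced Jun and Atf3 dimers, TGACGTCA, the cAMP response element, and TAATTA, a homeodomain core. Isl2 holds 1 GCGTG and 1 TGACGTCA, which do not overlap, near its start. Pou4f1 holds 1 GCGTG. No match was found in the windows of Isl1, Pou4f2, Tlx3, Drgx, Hmx1, Hmx2 or Hmx3, and Pou4f3 was not searched. Over all windows, GCGTG was in 28.1%, TGANTCA in 6.75%, TGACGTCA in 1.55% and TAATTA in 4.85%. A match is a description of the sequence and no evidence of binding.

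The members spanned a wide range of levels in adult ganglia. Per kilobase of merged exons, the highest mean over the 20 libraries was that of Isl2, at 83.6 CPM per kb, followed by Tlx3 at 65.3 and Pou4f1 at 50.5. Drgx had 39.7 CPM per kb, Isl1 19.7 and Pou4f3 12.3. The next genes were Pou4f2 at 4.38 and Hmx1 at 3.81 CPM per kb. Both Hmx3, at 0.539, and Hmx2, at 0.00157 CPM per kb, stood below the rest. From Isl2 down to Pou4f2, each gene was above the next in 20 of 20 libraries. Pou4f2 and Hmx1 could not be ordered: Pou4f2 was above Hmx1 in 11 of 20 libraries. Isl2 made up 31.0% of the summed level per kb of the 10 genes in control contralateral ganglia and Isl1 7.06%.

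**Figure D1:**
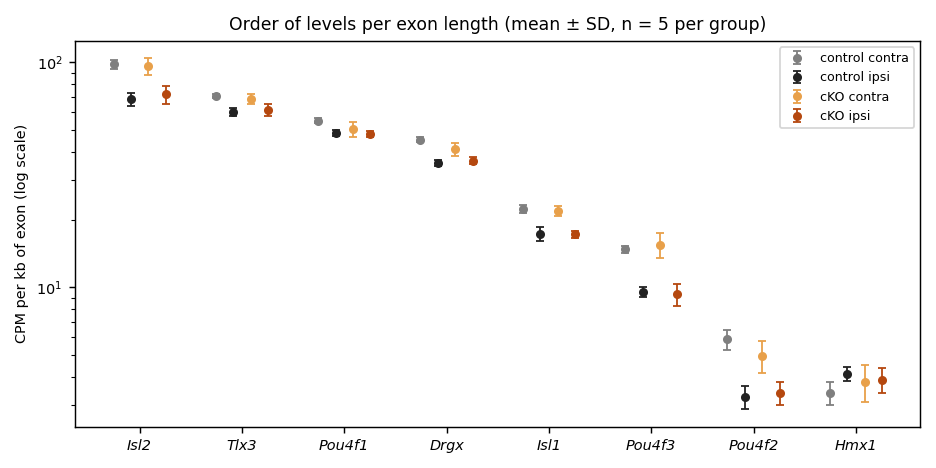
Level of 8 homeodomain factors in CPM per kilobase of merged exons (log axis), for the 4 groups; points are means and bars SD of 5 libraries, and Hmx2 and Hmx3 are left out because groups are at or near 0. Isl2 stands highest at 83.6 over all libraries, and Pou4f2 and Hmx1 share the lowest range.

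Most members were lower on the injured side in both genotypes. Leaving out Hmx3, whose call the filter fixed, and Hmx2, 7 of 8 members were called lower and 0 higher in control mice, where 29.9% of all tested genes were called (16.0% lower and 13.8% higher). In cKO mice 6 of the 8 were called lower and 0 higher, where 31.3% of all tested genes were called (15.1% lower and 16.2% higher). The median log2 change of all tested genes was -0.00 in control and -0.03 in cKO mice. Because the members were chosen with earlier results of these data known, setting them beside all genes is a description only. In a ganglion measured in bulk, fewer cells of a type and less RNA per cell cannot be told apart.

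**Figure D2:**
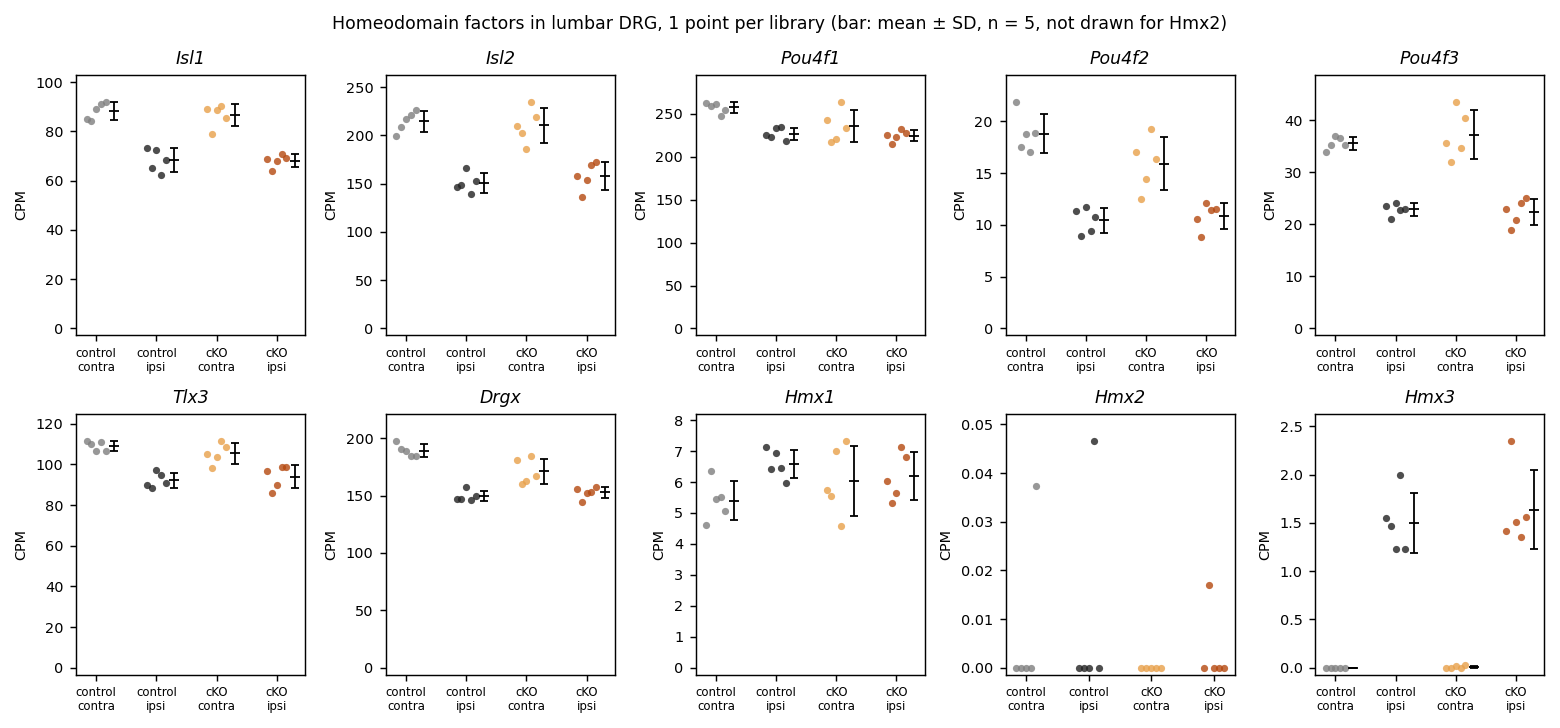
CPM of each homeodomain factor in every library, by group (contra, contralateral; ipsi, ipsilateral), with the mean and SD of 5 libraries beside the points except for Hmx2. The ipsilateral points of Isl1, Isl2, Pou4f2, Pou4f3 and Drgx lie below the contralateral points in both genotypes, and Hmx3 lies above. Sides lay apart in the lower direction in 12.3% of tested genes in control and 8.32% in cKO mice.

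The LIM-homeodomain factors come first. Isl1 had 85.2, 84.2, 89.1, 91.2 and 92.1 CPM in the contralateral and 73.5, 64.98, 72.5, 62.2 and 68.5 CPM in the ipsilateral libraries of control mice H62, H63, H65, H96 and H97, the order used for control mice below. In cKO mice H61, H64, H95, H99 and H100, the order used for cKO mice below, it had 89.1, 79.2, 88.6, 90.2 and 85.5 CPM contralaterally and 68.9, 63.96, 67.8, 70.8 and 69.0 CPM ipsilaterally. All ipsilateral libraries were below all contralateral ones in each genotype, as in 12.3% of tested genes in control and 8.32% in cKO mice. These shares also apply to the members below whose ipsilateral libraries all lay under the contralateral ones. The log2 change of Isl1 was -0.37 ± 0.0455 (SE, edgeR adjusted p = 2.085e-06) in control and -0.35 ± 0.0455 (adjusted p = 4.878e-06) in cKO mice. All 5 mice of each genotype went down.

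Isl2, the paralog that marks sensory and some motor neurons, had a larger fitted drop. Its contralateral levels in control mice were 199, 209, 217, 221.5 and 227 CPM, and its ipsilateral levels were 147, 149, 167, 139 and 153 CPM. The cKO libraries had 209.7, 202.5, 186, 235 and 219 CPM contralaterally and 158, 137, 153, 169 and 172 CPM ipsilaterally. No ipsilateral library reached a contralateral one in either genotype. Isl2 fell by 29.8% in control mice (log2 change -0.51 ± 0.0640, edgeR adjusted p = 3.052e-06), and its log2 change in cKO mice was -0.42 ± 0.0639 (adjusted p = 3.556e-05). Isl2 overlaps the antisense gene Gm17226, which had 70 to 166 counts per library against 11564 to 26693 for Isl2.

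Changes in the POU4 (BRN3) class ran from small to the largest drops among the members. Pou4f1, which with Isl1 sets the general sensory programme, had 263, 259.8, 262, 248 and 255 CPM contralaterally and 225, 223.5, 234, 234.5 and 218 CPM ipsilaterally in control mice. Its cKO levels were 243, 217, 221, 264 and 234 CPM contralaterally and 225, 215, 223, 232 and 227 CPM ipsilaterally. The sides did not overlap in control mice and overlapped in cKO mice, whose contralateral values spread widest. Its log2 change was the smallest of the class, -0.18 ± 0.0414 (edgeR adjusted p = 0.00185) in control mice. In cKO mice it was -0.07 ± 0.0414 (adjusted p = 0.212) and was not called, with 4 of 5 mice lower. The difference between the genotypes' changes was 0.11 ± 0.0586 (adjusted p = 0.539).

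Pou4f2 (Brn3b), known from retinal ganglion cells, had a larger fitted drop. In control mice it had 21.9, 17.5, 18.8, 17.1 and 18.9 CPM contralaterally and 11.4, 8.96, 11.8, 9.40 and 10.7 CPM ipsilaterally. Among cKO mice its levels were 17.1, 12.5, 14.4, 19.3 and 16.4 CPM contralaterally and 10.6, 8.81, 12.1, 11.4 and 11.5 CPM ipsilaterally. Every ipsilateral library was below every contralateral library of its genotype, and the contralateral value of cKO mouse H64 was the lowest of its group. Pou4f2 fell by 44.5% in control mice (log2 change -0.85 ± 0.109, edgeR adjusted p = 4.669e-06) and had a log2 change of -0.55 ± 0.109 in cKO mice (adjusted p = 0.000537).

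Pou4f3 (Brn3c), the hair cell factor that also marks subsets of sensory neurons, had 33.8, 35.1, 36.9, 36.5 and 35.2 CPM contralaterally and 23.5, 20.9, 24.2, 22.8 and 22.9 CPM ipsilaterally in control mice. The cKO mice had 35.6, 32.0, 43.5, 34.5 and 40.4 CPM contralaterally and 22.9, 18.9, 20.8, 24.1 and 25.1 CPM ipsilaterally. The sides were well apart in both genotypes. Pou4f3 fell by 35.6% in control mice (log2 change -0.64 ± 0.0766, edgeR adjusted p = 1.762e-06) and fell by 39.9% in cKO mice (-0.74 ± 0.0766, adjusted p = 2.182e-07). It was the member with the largest drop in cKO mice, and Pou4f2 the one with the largest drop in control mice. Neither gene's interaction of genotype and injury was called (0.30 ± 0.153, adjusted p = 0.530 for Pou4f2, and -0.10 ± 0.108, adjusted p = 0.775 for Pou4f3).

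Tlx3 and Drgx, the factors of nociceptive neurons, had fitted drops between those of Pou4f1 and Isl1. Tlx3 ranged from 106.5 to 111.5 CPM contralaterally and from 88.2 to 97.1 CPM ipsilaterally in control mice, and from 98.3 to 111 and from 86.1 to 98.9 CPM in cKO mice. Its sides overlapped only in cKO mice, where 2 ipsilateral libraries exceeded the lowest contralateral one. The log2 change was -0.24 ± 0.0402 (edgeR adjusted p = 8.309e-05) in control and -0.17 ± 0.0401 (adjusted p = 0.00307) in cKO mice, with all 10 mice lower.

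Drgx had 197.5, 190.4, 189, 184.5 and 184.6 CPM contralaterally and 147, 147, 157, 146.5 and 149.9 CPM ipsilaterally in control mice. In cKO mice Drgx was at 181, 160.0, 163, 184 and 167 CPM contralaterally and 156, 145, 152, 153 and 158 CPM ipsilaterally. The sides did not overlap in either genotype, and the ipsilateral levels of the genotypes lay in 1 range. The log2 change was -0.34 ± 0.0373 (edgeR adjusted p = 5.011e-07) in control and -0.16 ± 0.0373 (adjusted p = 0.00188) in cKO mice. The interaction was 0.18 ± 0.0528, with an unadjusted p of 0.00325 that did not pass adjustment (edgeR adjusted p = 0.485).

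**Figure D3:**
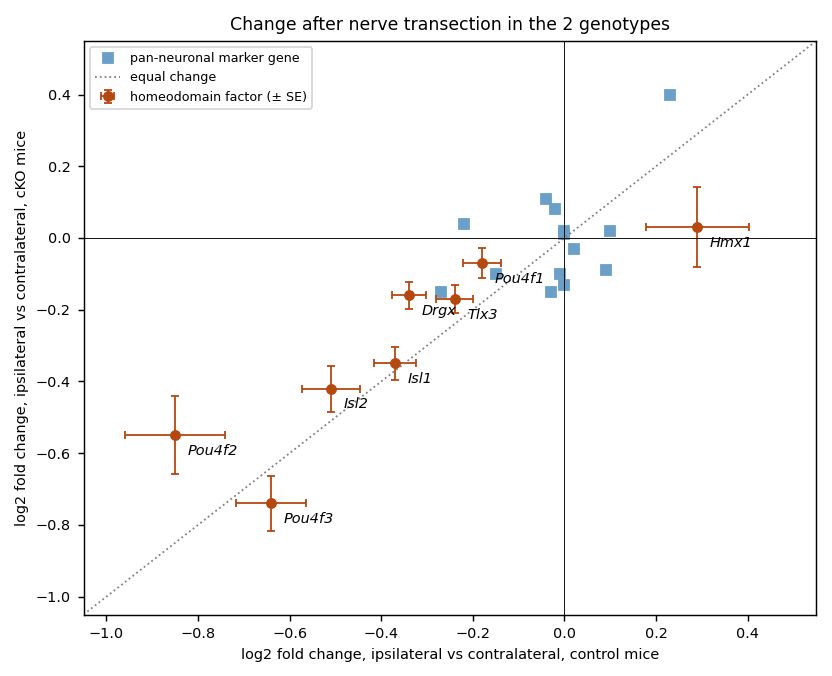
Log2 fold change after injury in control mice (horizontal) and cKO mice (vertical) for 8 homeodomain factors with SE bars and 14 pan-neuronal marker genes; the dotted line marks equal change, and Hmx3 is left out because its fitted value depends on the prior count. The factors other than Hmx1 lie below 0 on both axes, while most markers lie near 0.

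In the HMX class, Hmx3 had 0 counts in all 5 contralateral control libraries and 127, 114, 103, 171 and 128 counts in the ipsilateral ones. In cKO mice it had 0, 0, 2, 0 and 2 counts contralaterally and 132, 277, 168, 145 and 135 counts ipsilaterally. Every mouse went from at most 2 counts to at least 103. Since Hmx3 passed the filter through its ipsilateral libraries alone, this separation is not compared with that of other genes. The ipsilateral means were 1.49 ± 0.312 CPM in control and 1.64 ± 0.404 CPM in cKO mice. Set against a floor of 3 counts over the contralateral control group, the pooled ipsilateral CPM of Hmx3 in control mice was at least 236-fold higher. This bound depends on the chosen floor and leaves out the spread between mice. In cKO mice the ratio of pooled CPM was 175, with a 95% counting interval of 67.9 to 642 from 857 against 4 counts, which covers counting error only. Those 4 counts lie in H95 and H100, and the ratio was 281 without H95 (interval 77.6 to 2327) and 286 without H100 (78.8 to 2363). It was 124.5 without H64 (48.35 to 458.3), which had the most ipsilateral counts, 142.5 without H61 and 146.9 without H99. The fitted fold changes depend on the prior count, and the filter fixed the outcome of a test between the sides, so neither is given. The ipsilateral levels of the genotypes were not called different (log2 difference 0.13, 95% interval -0.29 to 0.56, adjusted p = 1).

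Hmx2, the neighbour of Hmx3 on the same strand, had 9 counts in all. There were 3 in the contralateral library of control mouse H97, 4 in the ipsilateral library of control mouse H96, 2 in the ipsilateral library of cKO mouse H64 and 0 in the other 17. A change of Hmx2 was not detectable at this depth. Both genes lie within the span of Fgfr2, a fibroblast growth factor receptor gene on the opposite strand in GENCODE M21. The library kit keeps strand, but the strand setting of the counting is not given in the sources used here. Fgfr2 had 4.26, 5.37, 7.996 and 5.96 CPM in control contralateral, control ipsilateral, cKO contralateral and cKO ipsilateral groups, with a log2 change after injury of 0.33 (edgeR adjusted p = 0.389) in control and -0.43 (adjusted p = 0.235) in cKO mice. The part of Fgfr2 reads in the counts of Hmx3 was not tested.

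**Figure D4:**
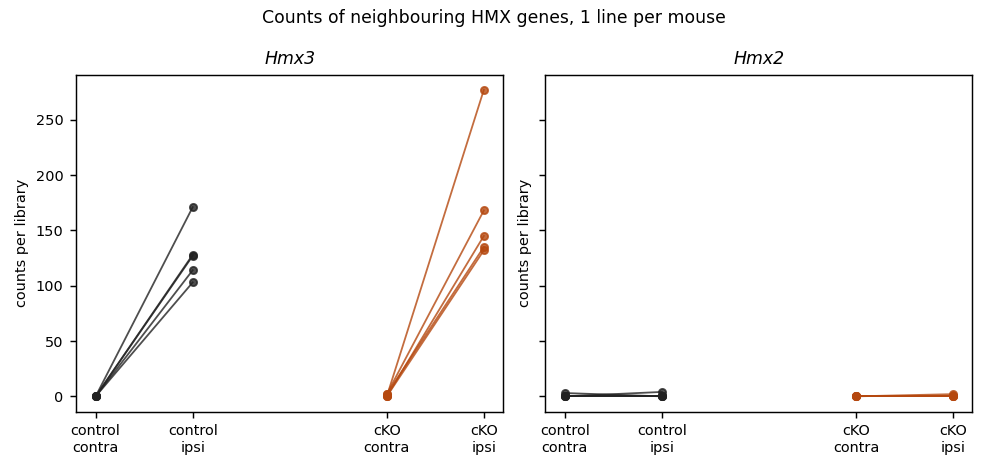
Counts of Hmx3 and Hmx2 in each library, with a line joining both sides of a mouse (control dark, cKO orange). Hmx3 goes from 0 to 2 counts to 103 to 277 counts in every mouse, and Hmx2 has at most 4 counts in any library.

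Hmx1, which is active in cranial and dorsal root sensory neurons, was not called in either genotype. It ranged from 4.61 to 6.34 CPM contralaterally and from 5.97 to 7.14 CPM ipsilaterally in control mice, and all 5 mice were higher on the injured side. The log2 change of 0.29 ± 0.112 was not called (edgeR adjusted p = 0.0601). It was called with DESeq2 (0.30, adjusted p = 0.0378) and in a fit of only the control libraries (0.30, adjusted p = 0.0113). It was also called without H63 (0.37, adjusted p = 0.0376), H95 (0.31, adjusted p = 0.0471), H99 (0.29, adjusted p = 0.0217) or H100 (0.29, adjusted p = 0.0481). Without H62, the control mouse with the largest change (0.63), it was 0.20. Over all alternatives the adjusted p of Hmx1 in control mice ran from 0.0113 to 0.254. The cKO range was from 4.57 to 7.32 CPM contralaterally and from 5.32 to 7.13 CPM ipsilaterally. Its log2 change there was 0.03 ± 0.112 (adjusted p = 0.858), with 2 of 5 mice higher. Hmx1 overlaps the uncharacterised genes 4930442P19Rik, on the opposite strand with 32 to 63 counts, and Gm43377, on its own strand with 6 to 30 counts, against 379 to 764 for Hmx1.

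Between the genotypes, no member was called on either side or in the interaction. The background was small as well: 0.0735% of tested genes were called contralaterally, 0.007% ipsilaterally and 0% in the interaction. At an unadjusted p under 0.05 edgeR gave 4 members contralaterally (Drgx, Pou4f1, Pou4f2 and Hmx3), 0 ipsilaterally and 2 in the interaction (Drgx and Hmx3), against 5006, 674 and 2799 of all genes. DESeq2 called 1, 0 and 0 members, and 3.64%, 0.0105% and 0.0385% of all tested genes. Hmx3 is on that list through the 4 counts of cKO contralateral libraries, which are near the floor.

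Drgx came nearest on the uninjured side. All 5 cKO contralateral libraries, from 160.0 to 184 CPM, were below all 5 control libraries, from 184.5 to 197.5 CPM, as in 1.07% of tested genes. The highest cKO value was that of mouse H99, just under the lowest control value. The log2 difference was -0.15 ± 0.0373 (edgeR adjusted p = 0.103), -0.14 with DESeq2 (adjusted p = 0.0178) and -0.17 without H99 (adjusted p = 0.00738). Over all alternatives its adjusted p ran from 0.00738 to 0.384, and the difference was smallest, at -0.11, without H95. Within the mice numbered 61 to 65 it was -0.18, and within those numbered 95 to 100 it was -0.11. Pou4f1 was -0.13 ± 0.0414 (adjusted p = 0.138), with 4 of 5 cKO libraries below all control ones and H99 above all, and -0.17 without H99 (adjusted p = 0.00527). Without H95 Pou4f1 was at -0.09, and its adjusted p over all alternatives ran from 0.00527 to 0.422. Within the ranges of mouse numbers Pou4f1 was at -0.19 and -0.07. For Pou4f2 the difference was -0.24 ± 0.108 (adjusted p = 0.256), with -0.40 and -0.11 within the ranges. Of its cKO libraries 4 of 5 lay below all control ones, and H99 lay inside the control range. Without H99 the 2 members called were Drgx and Pou4f1, in a setting where 3326 genes were called in all. On the injured side the difference of Drgx was 0.03 (95% interval -0.04 to 0.10), that of Pou4f1 -0.02 (-0.10 to 0.07) and that of Pou4f2 0.06 (-0.16 to 0.27), each with an adjusted p of 1.

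Beside these contralateral differences, the summed CPM of 6 fibroblast markers was 802 to 1356 in control and 935 to 2236 in cKO contralateral libraries. It was 2236 in H64, 1980 in H95 and 1685 in H100, the mice with the lowest Drgx, and 1003 in H61 and 935 in H99, those with the highest. Control mice ran the other way, with 1356 in H62 and 1065 in H63, the mice with the highest Drgx, and 802 in H65, 807 in H96 and 838 in H97. The summed CPM of 14 pan-neuronal markers was 11653 to 13153 in control and 11515 to 13330 in cKO contralateral libraries, highest in H99. Their part in the result was not tested.

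**Figure D5:**
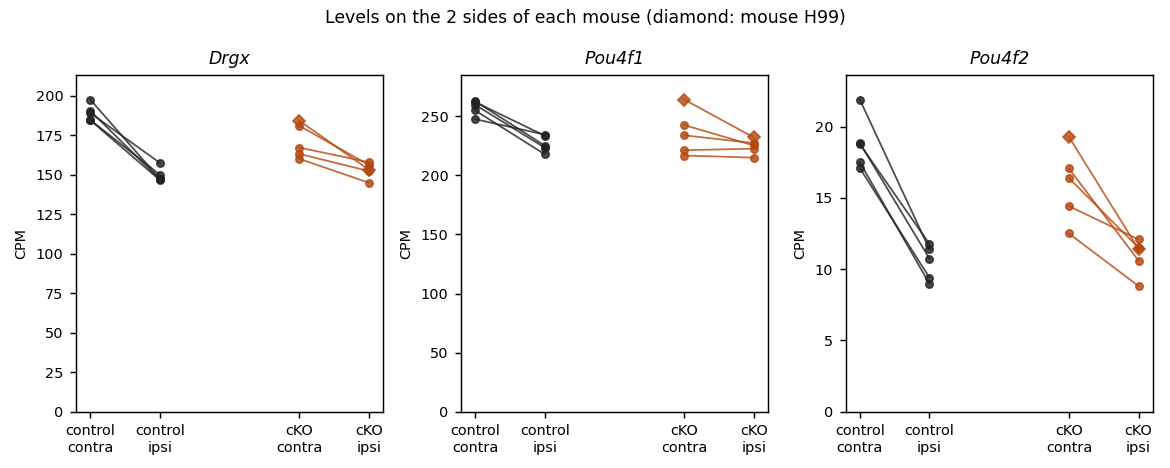
CPM of Drgx, Pou4f1 and Pou4f2 on the contralateral and ipsilateral side of each mouse, joined by a line (control dark, cKO orange, diamonds for cKO mouse H99). The contralateral Drgx values of cKO mice, 160.0 to 184 CPM, lie below those of control mice, and the ipsilateral values share 1 range.

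Ratios within a library put members side by side. Over 3 ratios and 4 contrasts each, 12 exact permutation tests were made. The log2 ratio of Pou4f1 to Isl1 was 1.54 ± 0.0862 contralaterally and 1.73 ± 0.118 ipsilaterally in control mice, with cKO values of 1.44 ± 0.0813 and 1.72 ± 0.0163 (SD, n = 5). It was higher ipsilaterally in 9 of 10 mice, by 0.23 on average (two-sided exact sign-flip permutation p = 0.00391, adjusted p = 0.0469), and the adjusted p was 0.0635 to 0.0938 when any of 8 mice was left out. The log2 ratio of Isl2 to Isl1 was lower ipsilaterally in 9 of 10 mice, by -0.10 (exact permutation p = 0.0117, adjusted p = 0.0635), and passed only without H95 (-0.13, adjusted p = 0.0469). The contralateral Drgx to Tlx3 log2 ratio was 0.79 ± 0.0368 in control and 0.70 ± 0.0637 in cKO mice, a difference of -0.10 that did not pass either (exact permutation p = 0.0159, adjusted p = 0.0635). The other 9 tests had adjusted p of 0.21 or more.

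General markers of neurons kept similar sums on both sides. Of the 14 pan-neuronal markers, 1 was called higher (Elavl3, 0.23) and 3 lower after injury in control mice (Rbfox3 -0.27, Elavl4 -0.15 and Syt1 -0.22), and 1 higher and 2 lower in cKO mice, with a median log2 change of -0.01 in each. The share of all tested genes called was 29.9% and 31.3%, so these counts are near the background. Their summed level was 11653 to 13153 CPM contralaterally and 11690 to 12970 CPM ipsilaterally in control mice, and 11515 to 13330 and 11303 to 12399 CPM in cKO mice. Satellite glia markers summed to 721 to 779 CPM contralaterally and 863 to 958 CPM ipsilaterally in control mice, with 695 to 861 and 852 to 903 CPM in cKO mice, and 2 and 3 of the 7 were called higher, where 13.8% and 16.2% of all tested genes were. Their part in the changes of the members was not tested. Markers of other neurons that use these factors had low sums. The 6 motor neuron markers, of cells that also express Isl1 and Isl2, summed to at most 5.34 CPM, the 6 spinal interneuron markers to at most 4.08 CPM and the 5 sympathetic markers to at most 4.22 CPM. Of the 3 interneuron markers tested, 1 was called higher and 1 lower in control mice, and of the 3 oligodendrocyte markers tested 2 were called higher there, with sums of 15.4 to 23.0 CPM contralaterally and 14.4 to 37.9 CPM ipsilaterally. One macrophage marker of 10 and 1 endothelial marker of 6 were called higher in control mice, and none of these lists had a call in cKO mice. Skeletal muscle markers summed to 8.43 to 330.2 CPM contralaterally and 5.89 to 609 CPM ipsilaterally in control mice, and to 5.27 to 1592 and 2.69 to 88.5 CPM in cKO mice, with 0 of 5 called by edgeR in either genotype. The part of these cells in the results was not tested.

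The cofactors through which LIM factors act were mixed. Of 10 LIM domain cofactors, 2 rose and 3 fell in control mice and 3 rose and 3 fell in cKO mice, where 29.9% and 31.3% of all tested genes were called. Ldb2, a bridging protein that joins LIM factors into complexes, fell by 0.40 on the log2 scale in control (edgeR adjusted p = 3.114e-07) and by 0.23 in cKO mice (adjusted p = 0.000212). The LIM-only gene Lmo1 fell by 0.17 and by 0.29, and Lmo3 fell by 0.49 and by 0.92. Rlim, a ubiquitin ligase that acts on LIM cofactors, rose by 0.13 and by 0.17. Ldb1, the general LIM cofactor, was at -0.05 (adjusted p = 0.156) and -0.01 (adjusted p = 0.878). The median was -0.01 and -0.07.

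Among 32 other homeodomain genes, 28 were tested, 5 rose and 10 fell in control mice, and 4 rose and 8 fell in cKO mice, beside 13.8% higher and 16.0% lower of all tested genes in control and 16.2% and 15.1% in cKO mice. Onecut1 fell by 0.59 on the log2 scale in control (edgeR adjusted p = 0.000159) and by 0.66 in cKO mice (adjusted p = 4.473e-05). Shox2, a factor of touch neuron subsets, fell by 0.44 and by 0.62, and Cux2 by 0.39 and by 0.55. The median was -0.03 and -0.04, near that of all tested genes.

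Of 18 sensory lineage factors without a homeodomain, 17 were tested, 3 rose and 7 fell in control mice, and 4 rose and 5 fell in cKO mice, with the share called over all tested genes at 29.9% and 31.3%. Prdm12, required for nociceptors and pain sensation, fell by 0.51 in control (edgeR adjusted p = 8.102e-07) and by 0.32 in cKO mice (adjusted p = 0.000234). Ebf3 fell by 0.51 and by 0.31, Prdm8 by 0.42 and by 0.31, Etv1, a factor of proprioceptors, by 0.41 and by 0.46, and Runx3, another proprioceptor factor, by 0.34 and by 0.38. Klf7, a regulator of axon growth, rose by 0.30 and by 0.46. Scrt2 rose by 0.34 in cKO mice and was at 0.16 in control mice (adjusted p = 0.0698). No interaction was called in this list.

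Effector genes of mature sensory subtypes numbered 25, all tested, of which 2 rose and 10 fell in control mice and 4 rose and 6 fell in cKO mice, against 29.9% and 31.3% of all tested genes called. Mrgpra3, an itch receptor, fell by 0.62 on the log2 scale in control (edgeR adjusted p = 0.000218) and by 0.42 in cKO mice (adjusted p = 0.00643). Gfra2, the neurturin receptor of non-peptidergic nociceptors, fell by 0.59 and by 0.29. Ret, its signalling partner, rose by 0.18 and by 0.36, and Nppb, an itch peptide, by 0.29 and by 0.65. Pvalb, the proprioceptor calcium buffer, fell by 0.48 in cKO mice and was at 0.10 in control mice (adjusted p = 0.750). Sst fell by 0.61 and Slc17a8, a vesicular glutamate transporter, by 0.46 in control mice, and they were at -0.41 (adjusted p = 0.0986) and -0.08 (adjusted p = 0.653) in cKO mice.

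Within groups, some members moved together across libraries, given here as a description over 20 libraries that share depth and pairs of mice. After subtraction of group means, the Pearson r of log2 CPM was 0.818 for Pou4f1 with Drgx and 0.809 for Pou4f2 with Drgx, the highest among the 28 pairs of 8 members. It was 0.742 for Pou4f3 with Hmx1 and 0.0783 for Pou4f1 with Pou4f3, the lowest within the POU4 class. Among 13072 other genes, the ones most like a member over all 20 libraries were Pqlc3 for Isl1 (r = 0.980), Amigo3 for Isl2 (0.978), Kcnd1 for Pou4f1 (0.960) and Ptgdr for Pou4f2 (0.975). Adra2c was nearest to Pou4f3 (0.977), Rtn4rl1 to Tlx3 (0.956) and Dgkz to Drgx (0.985). Hmx1 had no match as close, with Krtcap2 at 0.817. The step between the sides, which many genes share, enters each of these values.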

How the data were processed

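RNA from 20 DRG samples was made into stranded mRNA libraries, per the labels' protocols. The table the authors deposited gives raw, whole-number counts of exonic reads for each gene; a deposited FPKM table was not used here. HISAT2, Picard, mm10 and mm39 are named in the submitters' processing notes, without roles; the counting program, its strand setting and the annotation are not given in the sources used here. Symbols came from GENCODE M21 by Ensembl identifier (51487 of 78258 genes, 98.1% of the counts), and Drgx was found through its RefSeq synonym Prrxl1. Promoter windows came from RefSeq, with entries for 9 of the 10 members.

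Counts were fitted in R 4.3.3 with edgeR 4.0.16 (TMM, robust quasi-likelihood F-test) in 1 model of 20 libraries with a mean per group, after filterByExpr (minimum count 10, minimum total 15), which left 28564 of 56837 genes with any count. Fits were tested on simulated data. Ratios were compared with exact permutation tests (SciPy 1.17.1), adjusted over 12 tests. The smallest possible p is 0.00794 for 5 against 5 mice and 0.00195 for sign flips of 10. Alternatives were DESeq2 1.42.0, RLE scaling, no filter, mouse as a replicate block, only the libraries compared, the mouse-number range as covariate, and leaving out each mouse.

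Replicates are separate mice and differed by more than counting error (chi-square per degree of freedom 5.31 to 58.32 over 40 pairs). Both sides of a mouse share its number, which pairs them; the correlation of their deviations from group means was 0.185 in the median (-0.0546 to 0.361). Mouse numbers came from library names, since 1 title shortens its number. Reads carry no molecular identifiers. The members, gene lists and marker lists were chosen with earlier results of these data known. All 10 members are named; from each list, at most 4 called genes per injury comparison with the highest absolute change and a mean of at least 1 CPM, and others named beside them (Ldb1, and list genes given for the other genotype) were chosen after their values were seen. Some genes that this rule names are not reported here.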

Additional observations from a re-analysis of the deposited data

Results flagged for a closer look

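In 3 of 62 groups of 5 libraries examined, 1 library lay far from the other 4, where chance gives about 1 in 20, or 3.1 groups. The gap to the nearest other library, as a share of the group's range, was 0.791 for Hmx3 in the ipsilateral library of cKO mouse H64, with 2.35 CPM against 1.35 to 1.56 CPM. It was 0.782 for the log2 ratio of Isl2 to Isl1 in the ipsilateral library of control mouse H62, at 1.00 against 1.16 to 1.20. It was 0.737 for the log2 ratio of Pou4f1 to Isl1 in the ipsilateral library of cKO mouse H64, at 1.75 against 1.71 to 1.72.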

How the results depend on the processing

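No called member changed direction under any alternative, and none lost its call after injury. With Hmx3, whose call the filter fixed, the count of members called was 8 to 9 in control and 7 in cKO mice with each mouse left out, the ninth being Hmx1. With mouse as a replicate block, members called were 8, 7 and 0 (control injury, cKO injury, interaction) and all genes called were 8559, 9015 and 0, so the paired fit changed no member's call. Members called between genotypes contralaterally were 1 with DESeq2 (Drgx) and 0 to 2 with a mouse left out. All genes called there were 1041 with DESeq2, 50 without the filter, 2 with only the libraries compared and 4 to 3326 with a mouse left out (without H95 and without H99). In the interaction DESeq2 called 11 genes, and 0 to 43 were called with a mouse left out. The log2 ratio change of Pou4f1 to Isl1 was 0.21 to 0.26 with a mouse left out, and that of Isl2 to Isl1 -0.13 to -0.09. Uncalled differences changed sign in 1 setting for injury in cKO mice, 2 for contralateral genotype, 6 for ipsilateral genotype and 1 for the interaction. Depth limits Hmx2 and the contralateral level of Hmx3. The causes were not tested.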

Other observations

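Phox2a, a homeodomain factor of autonomic neurons, was chosen here after its values were seen, since its mean of 0.395 CPM is below the limit for named genes. It had 4 to 14 counts in control contralateral and 33 to 92 counts in control ipsilateral libraries, and 8 to 14 and 42 to 86 counts in cKO mice. The log2 change was 2.95 in control (edgeR adjusted p = 2.042e-07) and 2.33 in cKO mice. Neurog1, the proneural factor of embryonic sensory precursors, chosen in the same way, went from 0.440 ± 0.105 to 0.661 ± 0.0893 CPM in control mice (log2 change 0.59, adjusted p = 0.0181) and from 0.277 ± 0.0286 to 0.589 ± 0.153 CPM in cKO mice (1.09, adjusted p = 0.000159; SD, n = 5).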
